A study of Mus musculus with 4 samples.

Results

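The contractile and focal adhesion genes examined here are 38 mouse genes for smooth muscle actins and myosins, the proteins that bind, crosslink or regulate actin filaments, and the scaffolds that tie those filaments to integrins at the cell membrane. They were chosen by name, with earlier results of these data known. Each was represented by the probe set annotated to that symbol alone with the highest mean over 4 arrays, and all 38 had one, among 18193 genes represented in this way. The cells were C3H10T1/2, a mouse line labelled as mesenchymal stem cells, in standard culture. The 2 control cultures (dose 0) were not treated, and the 2 BMP3 cultures received recombinant human BMP3 at 100 ng/ml for 6 hours. BMP3, bone morphogenetic protein 3, is a growth factor related to TGF-beta. RNA of each culture was measured on 1 Affymetrix 3' expression array. The labels call the cultures biological replicates of this 1 line, so n = 2 per group.

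Stress fibres are bundles of actin filaments and non-muscle myosin that pull on focal adhesions, the sites where integrins bind the matrix. Many of their genes are targets of serum response factor (SRF), which binds a DNA element called the CArG box and works with myocardin in differentiated smooth muscle and with myocardin-related factors in most mesenchymal cells. Free actin monomer holds the myocardin-related factors in the cytoplasm, so the expression of these genes is known to follow the state of the cytoskeleton. TGF-beta is known to raise smooth muscle genes in C3H10T1/2 cells. The comparison of BMP3 with control arrays addressed which of these transcripts differ after exposure to BMP3.

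The values are taken to be log2 intensities, so a difference of 1 is a doubling. A log2 value of 6 was taken as the limit below which a gene is called dim. Array medians ran from 3.31 to 3.40, and 37.7% to 38.6% of probe sets reached 6 on each array. Of the mesenchymal stromal markers listed, all 12 measured reached 6 on average, among them Pdgfra, Pdgfrb, Vim, Col1a1 and Thy1. Of the 11 skeletal muscle, 8 cardiac muscle and 6 endothelial markers, 0 averaged 6, while 2 of 7 pericyte markers (Cspg4 and Notch3), 1 of 6 epithelial markers (Epcam) and 1 of 5 blood cell markers (Cd14) did. The 4 poly-A spike-in controls each averaged lower in BMP3 arrays, with Dap at 10.12 in the controls and 8.99 in BMP3 arrays, as did 18S ribosomal RNA (10.96 and 9.45). The part of these in the differences below was not tested.

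As a group, these genes had slightly higher values in BMP3 arrays, and 2 members, Fhl1 and Mylk, stood apart with lower ones. Of the 38 genes, 32 had a higher mean in BMP3 than in control arrays and 6 a lower one, against 42.4% higher among all genes. Median centring of the arrays gave 34 members and 67.0% of all genes higher. The median difference, BMP3 minus control, was 0.19 on the log2 scale, against -0.01 over all genes. No member passed an adjusted p of 0.05 (limma, Benjamini-Hochberg over 45037 probe sets, smallest adjusted p among members 0.222). The same test called 0% of all probe sets, while 3779 (8.39%) had an unadjusted p under 0.05. At an unadjusted p under 0.05, 3 members were higher, Zyx, Tln1 and Tpm3, where 5.28% of all genes were. Zyx stayed under 0.05 in each of 12 alternative fits, while Tln1 did not in 7 of them (p up to 0.606) and Tpm3 not in 6 (p up to 0.417), cyclic loess and the mean of all probe sets included for both. Only Fhl1 and Mylk were lower at that level, where 4.52% of all genes were. In this fit, which ignores the replicate number, the members' shares of 7.89% and 5.26% lay near that background. With a block for the replicate number, 15 members (39.5%) were higher at that level, against 8.98% of all genes. The same 2 were lower, against 8.82%. The labels do not say what a shared number marks. When a 1.5-fold difference was also required in the fit without the block, 0 members were higher and 2 were lower (5.26%), beside 1.18% and 1.65% of all genes.

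Most of these transcripts were bright. A group mean of 6 or more was reached by 33 of the 38, the lowest of them, Smtn, at 8.16 in its higher group, so none passed through 1 group alone. Of these 33, 29 were higher and 4 lower (Fhl1, Mylk, Myl6 and Myl9), with a median difference of 0.23. Of all 9268 genes at that level 53.2% were higher, with a median of 0.02. At an unadjusted p under 0.05, 9.09% of the bright members were higher and 6.06% lower, against 9.86% and 8.42% of the bright genes. With the 1.5-fold requirement the members' shares were 0% and 6.06%, against 2.05% and 2.95%. The BMP3 values lay above both control values for 11 of the 38 members (28.9%), beside 16.7% of all genes and 26% of the bright ones. They lay below both control values for 2 members (5.26%), beside 20.6% and 22%. Both the size of the shift and its margin over all genes depended on which arrays were used. Leaving out 1 array makes the replicate numbers unequal between the groups, so a gap between replicates enters the difference. Without control replicate 1 only 20 of the 38 members were higher (median 0.02), beside 41.3% of all genes (median -0.019). Without BMP3 replicate 2 only 21 of the 38 were (median 0.01), beside 53.5% of all genes (median 0.005), so little margin was left. Without control replicate 2 the median was 0.33 and without BMP3 replicate 1 it was 0.40.

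**Figure D1:**
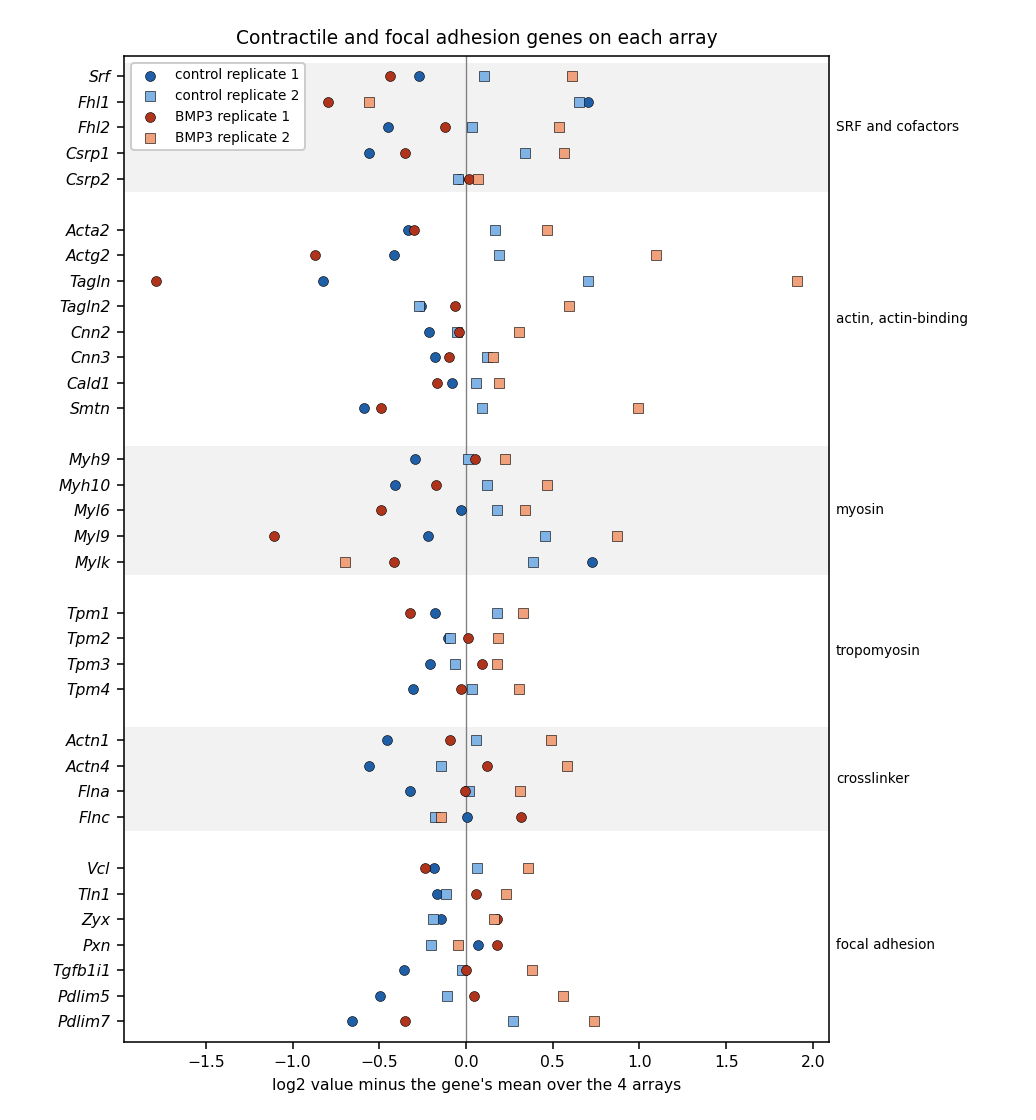
Log2 value of each bright member on each array, minus that gene's mean over the 4 arrays, ordered by role. Circles are replicate 1, squares replicate 2, blue control and orange to red BMP3. Fhl1 and Mylk have both blue points to the right of both BMP3 points, while for Tagln, Actg2 and Myl9 the squares lie to the right of the circles in both groups.

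SRF and the LIM proteins grouped with it held the member with the largest difference. Fhl1 encodes a LIM domain protein, abundant in striated muscle and also found at focal adhesions. Its log2 intensity was 12.26 and 12.21 in control replicates 1 and 2 and 10.77 and 11.00 in BMP3 replicates 1 and 2. Both BMP3 arrays lay more than 1 log2 unit below both control arrays, and the arrays within each group were close. The difference was -1.35 (SE 0.10, 95% confidence interval -1.67 to -1.04), 2.56-fold lower, with an adjusted p of 0.222 (limma). Its only other probe set was dim, between 2.37 and 2.42 on each array, and gives no reading of the gene. With any 1 array left out the Fhl1 difference stayed between -1.47 and -1.24.

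Its relative Fhl2, a LIM protein that binds SRF and is itself an SRF target, went the other way in the group means, with control values of 11.05 and 11.53 and BMP3 values of 11.38 and 12.03. The groups overlapped, and the difference was 0.42 (SE 0.32). Srf itself read 10.93 and 11.31 in the controls and 10.76 and 11.81 in BMP3 arrays. Both the lowest and the highest value of Srf were thus in BMP3 arrays, with a difference of 0.17 (SE 0.44). Csrp2, the member of this role with the highest mean signal, encodes a LIM protein of smooth muscle and was almost level, with control values of 15.06 and 15.05 and BMP3 values of 15.12 and 15.17. Csrp1, its relative, had a difference of 0.22 (SE 0.51) at this probe set and -0.61 (SE 0.78) at its other bright one. Myocd, which encodes myocardin, the cofactor of differentiated smooth muscle, was dim on all 4 arrays at 2.43 to 2.54.

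The promoter windows of these genes differ in whether they hold a strict form of the SRF element. RefSeq promoter windows of build GRCm38.p6, running from 250 bases before to 50 bases after a listed start, were matched for 31 of the 38 members. No window was matched for Actg2, Csrp2, Myh11, Myocd, Pxn, Tagln and Tgfb1i1. The matched windows were searched for the strict CArG box, CC then 6 letters that are each A or T, then GG, a pattern that reads the same on both strands. Variants of the pattern and sites outside the window were not searched for. A gene without a match can therefore still hold an SRF element. It was present in 7 of the 31 genes (22.6%): Fhl1, Fhl2, Srf, Myl9, Myl6, Cnn2 and Vcl. The same window held it in 1.81% of all 27025 genes listed and in 1.64% of those that were bright here. It was present in 10 of 72 related cytoskeletal genes with a window (13.9%). The 5 windows printed are those of Fhl1 and Mylk, the members past 1.5-fold at an unadjusted p under 0.05, and of 3 CArG-bearing genes whose values are described by array, Srf, Myl9 and Vcl. Capitals mark the CArG box. The Mylk window holds no strict box.
Fhl1, chrX:56779433-56779732, plus strand: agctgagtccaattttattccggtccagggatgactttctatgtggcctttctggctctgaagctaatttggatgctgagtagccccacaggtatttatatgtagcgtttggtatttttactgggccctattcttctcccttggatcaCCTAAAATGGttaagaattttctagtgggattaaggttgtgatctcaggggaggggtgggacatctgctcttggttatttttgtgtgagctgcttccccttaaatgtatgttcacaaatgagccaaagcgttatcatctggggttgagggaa
Mylk, chr16:34784700-34784999, plus strand: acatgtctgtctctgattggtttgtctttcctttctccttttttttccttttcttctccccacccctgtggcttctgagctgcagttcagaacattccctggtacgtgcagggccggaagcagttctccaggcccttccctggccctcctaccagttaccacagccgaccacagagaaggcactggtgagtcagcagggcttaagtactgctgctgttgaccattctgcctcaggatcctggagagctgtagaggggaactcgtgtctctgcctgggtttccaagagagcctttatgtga
Srf, chr17:46556113-46556412, minus strand: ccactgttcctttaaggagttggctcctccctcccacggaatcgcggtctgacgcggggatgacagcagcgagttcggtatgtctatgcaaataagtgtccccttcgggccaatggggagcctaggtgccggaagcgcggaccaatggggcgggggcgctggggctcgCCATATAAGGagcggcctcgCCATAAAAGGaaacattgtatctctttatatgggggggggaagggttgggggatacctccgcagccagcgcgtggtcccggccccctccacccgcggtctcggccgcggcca
Myl9, chr2:156775214-156775513, plus strand: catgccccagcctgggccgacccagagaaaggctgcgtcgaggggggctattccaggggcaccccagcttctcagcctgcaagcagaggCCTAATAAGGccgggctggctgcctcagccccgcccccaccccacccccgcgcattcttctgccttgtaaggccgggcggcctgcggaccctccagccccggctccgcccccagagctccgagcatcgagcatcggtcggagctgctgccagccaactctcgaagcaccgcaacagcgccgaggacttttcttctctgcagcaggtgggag
Vcl, chr14:20929148-20929447, plus strand: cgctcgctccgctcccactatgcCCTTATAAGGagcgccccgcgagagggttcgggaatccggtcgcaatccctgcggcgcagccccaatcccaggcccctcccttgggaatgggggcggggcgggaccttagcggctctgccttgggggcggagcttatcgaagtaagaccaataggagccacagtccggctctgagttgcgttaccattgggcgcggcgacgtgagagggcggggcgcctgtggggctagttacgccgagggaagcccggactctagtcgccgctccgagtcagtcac

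The box began 102 bases before the Fhl1 start, 161 before that of Myl9 and 227 before that of Vcl, and Srf had one 82 and another 62 bases before its start. The Fhl1 box, CCTAAAATGG, lies at 1 of the 2 starts listed for that gene, and the window of the other has no strict box. Vcl and Cnn2 have the same letters, CCTTATAAGG. The arrays do not show which start the cells used. Of the 7 CArG-bearing members, 4 were higher and 3 lower in BMP3 arrays (differences -1.35 to 0.42, median 0.12). Of the 24 members with a window and no strict box, 21 were higher and 3 lower (-1.11 to 0.71, median 0.27). Cnn1 and Des, among those lower, and Lmod1, among those higher, were dim. Of the CArG-bearing members, Myl6 and Myl9 turned higher and Srf and Vcl turned lower in at least 1 fit with an array left out. No test compared the sets. A match is a description of the letters and not a bound site.

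The actins and actin-binding proteins of smooth muscle had small group differences and wide gaps between arrays of the same group. Of the 11 genes, 9 were higher and 2 lower, and the lower ones, Cnn1 and Des, were dim. All 8 bright genes of this role were higher, although Cald1 and Cnn3 turned lower under cyclic loess, Cald1 also under quantile normalization. Without BMP3 replicate 2, Acta2, Actg2, Tagln, Cnn3, Cald1 and Smtn were lower, and without control replicate 1 all of these but Smtn were. Here 0 had an unadjusted p under 0.05. The 3 dim ones, Cnn1, Lmod1 and Des, stayed between 2.23 and 3.76 on every array. They encode calponin 1, leiomodin 1 and desmin, proteins of mature smooth or other muscle. Acta2, which encodes smooth muscle alpha-actin, had control values of 14.99 and 15.49 and BMP3 values of 15.02 and 15.79. The replicate 2 array was the higher one in each group, and the difference was 0.17 (SE 0.37). Cnn3, an acidic calponin and the member of this role with the highest mean signal, was at 15.62 and 15.92 in control arrays and at 15.70 and 15.96 after BMP3. Its groups overlapped, with a difference of 0.06 (SE 0.16), and its 6 bright probe sets ran from -0.05 to 0.32.

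Tagln, Actg2 and Smtn are given by array because of the gaps within their groups, a choice made after their values were seen. Tagln encodes transgelin (SM22), an actin-binding protein and a classical SRF target. It read 9.43 and 10.96 in the controls and 8.47 and 12.17 in BMP3 arrays. The 2 BMP3 arrays were the lowest and the highest of the 4 and stood 3.69 log2 units apart, while the group means differed by 0.12 (SE 1.59). Actg2, which encodes smooth muscle gamma-actin, had control values of 8.05 and 8.65 and BMP3 values of 7.60 and 9.56. Smtn, which encodes smoothelin, was at 7.32 and 8.0 in control arrays and at 7.41 and 8.90 after BMP3. For these 3 genes the replicate 2 array was above the replicate 1 array in both groups.

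The relatives of calponin and transgelin that are widely expressed outside muscle are given next. Tagln2 read 12.31 and 12.29 in the controls and 12.51 and 13.16 in BMP3 arrays, without overlap, and its 2 bright probe sets had differences of 0.53 and 0.62. Cnn2 had control values of 15.15 and 15.31 and BMP3 values of 15.33 and 15.67, a difference of 0.27 (SE 0.16) with the groups just apart. Cald1, which encodes caldesmon, an inhibitor of the actin-myosin interaction, had a difference of 0.02 (SE 0.15). Of its 4 bright probe sets, 2 were higher and 2 lower, from -0.13 to 0.27.

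Among the myosins and their kinase, Mylk had lower values in BMP3 arrays. Mylk encodes myosin light chain kinase, which phosphorylates the regulatory light chain and so switches on contraction in smooth muscle and non-muscle cells. Its log2 intensity was 8.89 and 8.54 in control replicates 1 and 2 and 7.74 and 7.46 in BMP3 replicates 1 and 2. The groups did not overlap, and the gap between them was wider than the gap within either. The difference was -1.11 (SE 0.18, 95% confidence interval -1.67 to -0.56), 2.16-fold lower, with an adjusted p of 0.339 (limma). With any 1 array left out it stayed between -1.28 and -0.94. A second Mylk probe set, below 6 on each array, was at 5.90 and 5.83 in control arrays and at 4.30 and 4.14 after BMP3. It was also lower without overlap, by -1.65 (SE 0.08). The remaining one lay between 2.11 and 2.18.

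The light chains and motors that Mylk acts through had differences in both directions, none at an unadjusted p under 0.05. Myl9, the regulatory light chain of smooth muscle and non-muscle myosin, read 13.05 and 13.73 in the controls and 12.17 and 14.15 in BMP3 arrays. As with Tagln, its lowest and highest values were both in BMP3 arrays, and its group means differed by -0.23 (SE 0.83). Myl6, an essential light chain, had a difference of -0.15 (SE 0.34). Myh9, the non-muscle myosin IIA heavy chain and the member of this role with the highest mean signal, had control values of 14.62 and 14.93 and BMP3 values of 14.97 and 15.14. Both BMP3 values of Myh9 lay above both control values, by a difference of 0.28 (SE 0.14). Of its 5 bright probe sets 4 were higher, up to 0.63, and 1 was lower, at -0.24. Myh10, the non-muscle myosin IIB heavy chain, had 0.29 (SE 0.33). Myh11, the heavy chain of mature smooth muscle, was dim on every array, between 2.81 and 2.88.

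**Figure D2:**
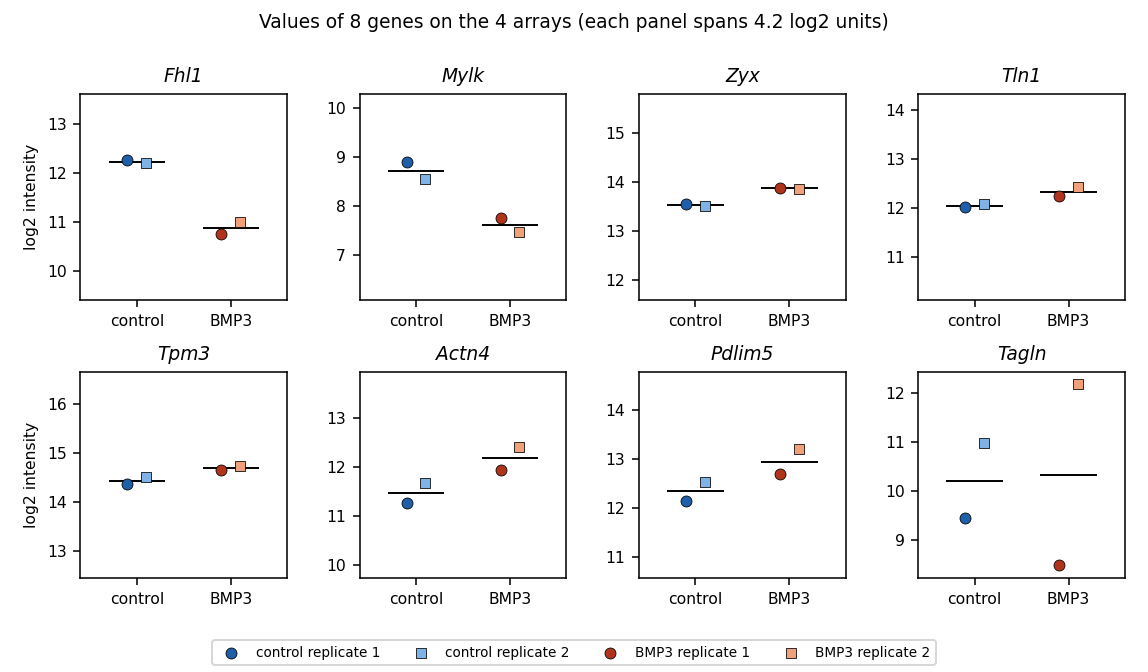
Log2 intensity of 8 members on each array, with the group mean as a horizontal line. The vertical axes differ in position and share a span. Fhl1 and Mylk lie lower in BMP3 arrays, and Zyx, Tln1, Tpm3, Actn4 and Pdlim5 lie higher without overlap. The 2 Tagln control values lie between its 2 BMP3 values, which are 3.69 log2 units apart.

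Tropomyosins, the coiled-coil proteins that lie along actin filaments and set which myosins can bind, were higher in all 4 genes by small amounts, except that Tpm1, at 0.00, turned lower under quantile normalization and cyclic loess and without control replicate 1 or BMP3 replicate 2. Tpm3 was at 14.36 and 14.50 in control arrays and at 14.66 and 14.74 after BMP3. Its groups did not overlap, and the difference was 0.27 (SE 0.07, adjusted p = 0.509, limma). Its 3 bright probe sets did not share a direction, with 1 at 0.59 and 1 at -0.49. Tpm4, the tropomyosin with the highest mean signal, read 14.37 and 14.71 in the controls and 14.65 and 14.98 in BMP3 arrays. The groups overlapped, with a difference of 0.28 (SE 0.19). Tpm2 had 0.20 (SE 0.08), and its 4 bright probe sets ran from 0.00 to 0.44. Tpm1 had 0.00 (SE 0.30), with its 3 bright probe sets from -0.42 to 0.67. Tropomyosin genes are spliced into many isoforms, and probe sets of 1 gene can read different ones.

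The actin crosslinkers were higher in all 4 genes, with a median difference of 0.35 and 0 at an unadjusted p under 0.05. Of these 4, Flnc turned lower without BMP3 replicate 1. Actn4, which encodes the non-muscle alpha-actinin 4, had control values of 11.26 and 11.67 and BMP3 values of 11.94 and 12.40. The groups did not overlap, and within each group replicate 2 was the higher array by a similar step. The difference was 0.71 (SE 0.25), a 1.63-fold higher mean, with an adjusted p of 0.634 (limma). Flna, which encodes filamin A and had the highest mean signal of this role, was at 14.04 and 14.37 in control arrays and at 14.35 and 14.67 after BMP3. Its groups overlapped by a small margin, with a difference of 0.30 (SE 0.19). Actn1 had 0.40 (SE 0.31), and its 3 bright probe sets were all higher, at 0.40 to 0.69. Flnc, the filamin of muscle, had 0.17 (SE 0.20), and here replicate 1 was the higher array in both groups.

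The focal adhesion and stress fibre scaffolds were higher in all 7 genes, with differences from 0.12 to 0.61 and a median of 0.34. Of these 7, Vcl and Pdlim7 turned lower without control replicate 1 or BMP3 replicate 2, and Pxn without control replicate 2. Compared within replicates 1 and 2, Pdlim7 was higher after BMP3 in both (11.75 against 11.44 and 12.84 against 12.37). Pxn was also higher in both, and Vcl only in replicate 2. Zyx encodes zyxin, which moves to strained stress fibres and recruits repair proteins there. Its control arrays gave log2 intensities of 13.56 and 13.52 and its BMP3 arrays 13.88 and 13.87. The gap between groups was several times the gap within them. The difference was 0.34 (SE 0.04, 95% confidence interval 0.22 to 0.45), a 1.26-fold higher mean, with an adjusted p of 0.271 (limma). Its other bright probe set was higher by 0.19 without overlap. Leaving out any 1 array left the Zyx difference between 0.32 and 0.36. Tln1, which encodes talin 1, the protein that activates integrins and links them to actin, read 12.02 and 12.07 in the controls and 12.24 and 12.41 in BMP3 arrays. The groups did not overlap, with a difference of 0.29 (SE 0.08, adjusted p = 0.515, limma), but its other bright probe sets were at -0.08 and 0.15.

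Pdlim5, which encodes a PDZ and LIM scaffold that binds alpha-actinin, had control values of 12.15 and 12.54 and BMP3 values of 12.69 and 13.21. Its groups did not overlap, and the difference was 0.61 (SE 0.26), a 1.52-fold higher mean, with an adjusted p of 0.735 (limma). Of its 5 bright probe sets 4 were higher and 1 lower (-0.32). Pdlim7, a scaffold of the same family, had 0.39 (SE 0.57) with overlap. Tgfb1i1, which encodes the paxillin relative Hic-5, was at 10.14 and 10.47 in control arrays and at 10.49 and 10.87 after BMP3. The Tgfb1i1 difference was 0.38 (SE 0.20), with the groups just apart. Pxn, which encodes paxillin, had 0.13 (SE 0.14). Vcl, which encodes vinculin and had the highest mean signal of this role, read 14.93 and 15.18 in the controls and 14.88 and 15.47 in BMP3 arrays. Its groups overlapped, with a difference of 0.12 (SE 0.26).

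**Figure D3:**
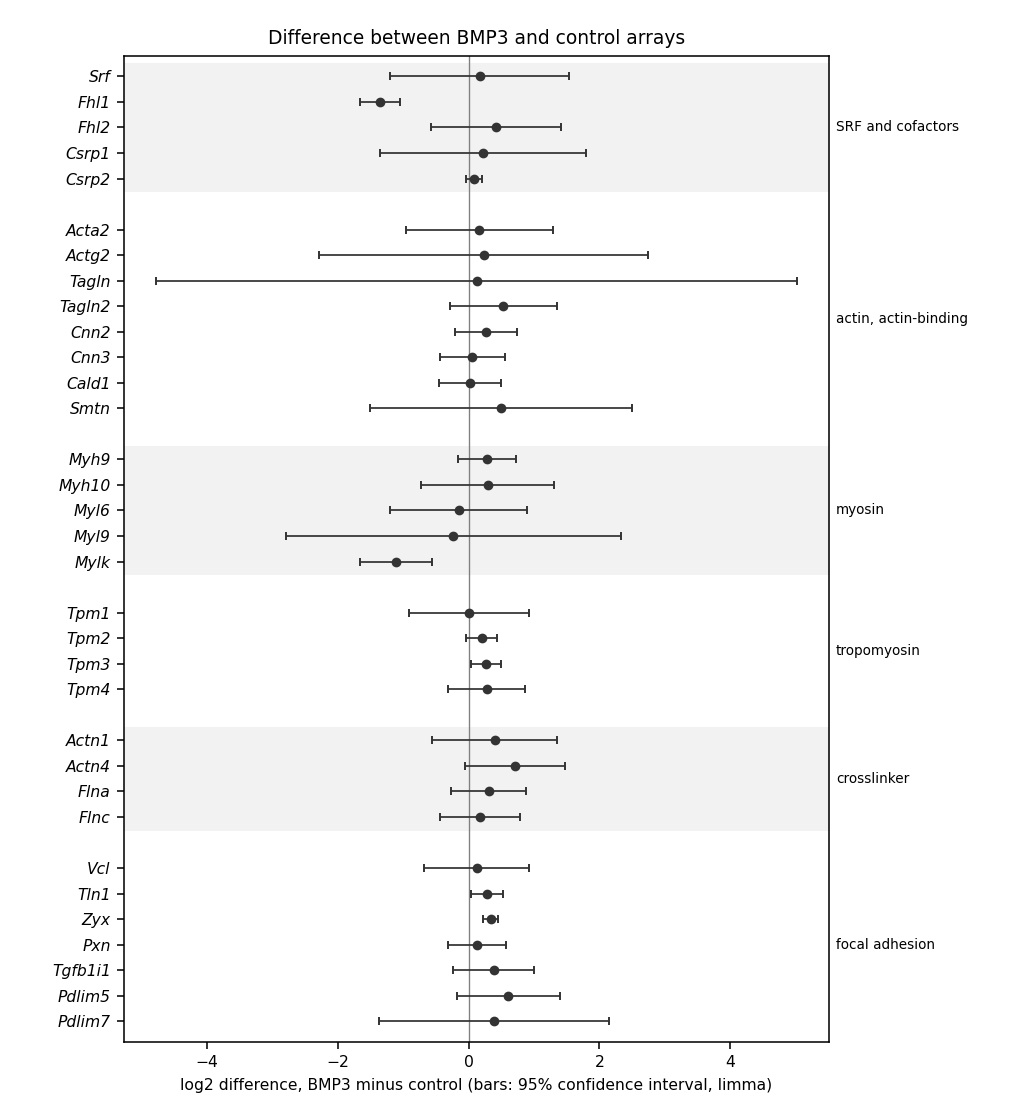
Difference of each bright member, BMP3 minus control, on the log2 scale, with its 95% confidence interval from limma. The intervals of Fhl1 and Mylk lie below 0 and those of Zyx, Tln1 and Tpm3 above it, without adjustment for the number of probe sets, and that of Tagln runs from -4.77 to 5.02.

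The members varied together between arrays of the same group. The replicate 2 array was above the replicate 1 array in both groups for 27 of the 38 genes (71.1%), against 17.9% of all genes, and for 26 of the 33 bright ones (78.8%), against 25.7% of all bright genes. Replicate 1 was the higher array in both groups for 4 bright members, Mylk, Zyx, Pxn and Flnc. Across the 33 bright members the replicate 2 minus replicate 1 gap in control arrays and that in BMP3 arrays had a Pearson correlation of 0.86, against 0.61 across all bright genes. Genes are not independent replicates, and the gaps share the same 4 arrays. Both gaps exceeded the BMP3 minus control difference for 20 of the 33 bright members (60.6%), against 33.1% of bright genes.

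The 6 widest gaps in BMP3 arrays were 3.69 for Tagln, 1.98 for Myl9, 1.97 for Actg2, 1.49 for Smtn, 1.09 for Pdlim7 and 1.05 for Srf. In control arrays the same genes had gaps of 1.53, 0.68, 0.60, 0.68, 0.93 and 0.38. The labels give the replicate number with no day or batch, so what the 2 arrays of 1 number share is not known. The actin 3' minus 5' control, a reading of RNA integrity, was 0.48 and 0.39 in control replicates 1 and 2 and 0.73 and 0.38 in BMP3 replicates 1 and 2. That of Gapdh was -0.55, -0.56, -0.09 and -0.44 in the same order. The part of RNA integrity in these gaps was not tested.

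**Figure D4:**
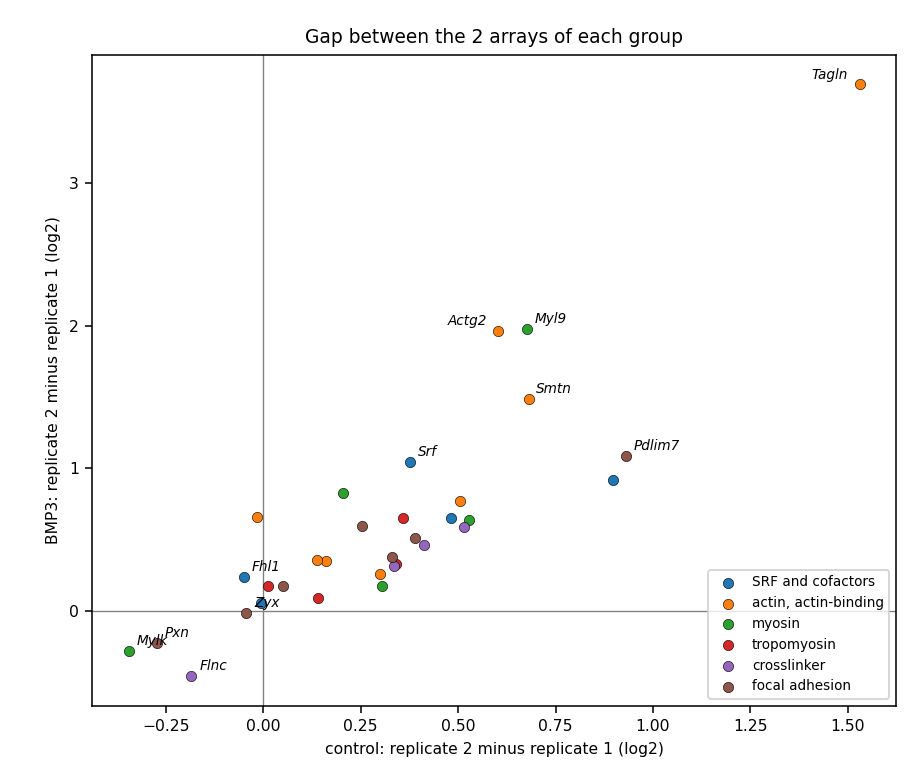
Each point is a bright member. The horizontal axis is control replicate 2 minus control replicate 1 and the vertical axis is BMP3 replicate 2 minus BMP3 replicate 1, both in log2 units. Most points lie in the upper right, with Tagln at 1.53 and 3.69, and Mylk, Zyx, Pxn and Flnc lie in the lower left.

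Markers of other contractile cells were set beside these values. Over the 11 skeletal muscle markers the summed signal, on the log2 scale, was 6.24 to 6.31 in control and 6.17 to 6.22 in BMP3 arrays. Over the 8 cardiac markers it was 5.91 to 6.06 in control and 6.03 to 7.60 in BMP3 arrays. The upper value is that of BMP3 replicate 2, where Tnnt2, which encodes cardiac troponin T, was at 7.34, against 4.72, 5.01 and 4.97 on the other arrays. The pericyte markers summed to 11.46 to 11.53 in control and 11.62 to 11.88 in BMP3 arrays. Within them Notch3, a receptor of mural cells, had control values of 8.42 and 8.07 and BMP3 values of 7.20 and 6.49. Anpep, which was dim, had control values of 5.18 and 5.48 and BMP3 values of 3.41 and 3.80. It was lower without overlap, by a difference of -1.72. Cspg4, the NG2 proteoglycan of pericytes and the brightest of them, read 11.23 and 11.35 in the controls and 11.53 and 11.82 after BMP3. It was higher without overlap, by 0.39, and it dominates the summed signal. The groups of the remaining pericyte markers, all dim, overlapped. Their part in the differences of the contractile genes was not tested. In RNA of whole cultures, fewer cells of a type and less RNA per cell cannot be told apart.

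Other genes of the actin cytoskeleton were listed by function, also with earlier results of these data known. The absolute gap between replicates had a median of 0.195 in control and 0.238 in BMP3 arrays over the 75 bright ones, 0.336 and 0.461 over the bright members, and 0.16 and 0.231 over all bright genes. Of 89 listed, 84 were measured, and 57 were higher and 27 lower in BMP3 arrays (67.9% higher, median 0.16). Among all genes 42.4% were higher, and among all bright genes 53.2%. None passed the adjusted p of 0.05 (limma, smallest 0.232). At an unadjusted p under 0.05, 8 were higher and 2 lower (9.52% and 2.38%). That compares with 5.28% and 4.52% of all genes, and with 9.86% and 8.42% of the bright ones. The higher share was thus near that of bright genes. When a 1.5-fold difference was also required, 3 were higher (3.57%, against 1.18% of all genes and 2.05% of bright ones) and 0 lower. The count in either direction, 3 beside 2.83% of all genes, was 5 without control replicate 2 (3.61% of all genes), 10 without BMP3 replicate 1 (5.62%) and 1 with the mean of all probe sets (2.04%). It was 5 with only the bright probe sets tested (5.98%) and 5 with an intensity trend in the prior (3.7%). The median was 0.08 without BMP3 replicate 2. The groups did not overlap with BMP3 above for 27 (32.1%), against 16.7% of all genes and 26% of bright ones. They did not overlap with BMP3 below for 10 (11.9%), against 20.6% and 22%.

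Other actin genes and genes of actin turnover were higher in 17 of 21 (median 0.18). Wdr1, which encodes a cofactor of cofilin in filament disassembly, was at 12.01 and 12.22 in control arrays and at 12.91 and 12.82 after BMP3. The Wdr1 difference was 0.75 (SE 0.09). Cap1, a protein that recharges actin monomers, read 12.99 and 13.08 in the controls and 13.68 and 13.63 in BMP3 arrays, a difference of 0.62 (SE 0.05). Arpc2, a subunit of the branching complex Arp2/3, had 0.41 (SE 0.05). In all 3 the gap between groups exceeded that within them, and the adjusted p values were 0.297, 0.232 and 0.299 (limma).

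Other focal adhesion genes were higher in 22 of 30 (median 0.20). Vasp, which promotes filament growth and is recruited by zyxin, had control values of 11.38 and 11.63 and BMP3 values of 12.07 and 12.36. Its groups did not overlap, with a difference of 0.70 (SE 0.16, adjusted p = 0.431, limma). Arhgef7, an exchange factor for Rac and Cdc42, had 0.24 (SE 0.03), while Tln2, the relative of talin 1, had -0.20 (SE 0.06). Of other myosins, 7 of 12 were higher, with Myo1e at 0.42 (SE 0.05), Myo9b at 0.34 (SE 0.05) and Myo18a at 0.23 (SE 0.10).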

How the data were processed

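Per the labels, total RNA of 2 control and 2 BMP3 cultures was put on Affymetrix 3' arrays after biotin labelling. The authors deposited 1 value per probe set and array, read here as log2 intensity from its range, since the scale is not stated. Per the submitters' processing notes Partek was used, without a step named. Background correction and normalization: not given in the sources used here. A normalization that equalises arrays would hide a change shared by most transcripts.

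Groups and replicate numbers came from the sample titles. After 64 control probe sets were left out, 45037 were fitted with limma 3.58.1 in R 4.3.3 (lmFit, eBayes, two-sided, Benjamini-Hochberg over all, threshold 0.05), without a filter or block. The fit was tested on simulated data. The simulated noise was independent between arrays, so that test does not cover the shared deviations of same-numbered arrays given below. A looser threshold required an unadjusted p under 0.05 and a 1.5-fold difference. Intervals are at 95%. In the platform annotation 34945 probe sets had 1 symbol, 932 several and 9160 none. The number of arrays limits the precision.

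Members and lists were chosen with earlier results of these data known. Array values are given by rule for members with a group mean of 6 or more and an unadjusted p under 0.05 or a 1.5-fold difference, and for the member of each role with the highest mean signal. From each related list the 3 genes of smallest p averaging at least 6 are named. The values of 1 related list are not reported here on their own. Others by array were chosen after their values were seen. Alternatives were the replicate block, each array left out, 3 normalizations, a filter on dim probe sets, another prior, the mean of all probe sets, an offset of 16 and a 2-fold threshold.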

Additional observations from a re-analysis of the deposited data

How the results depend on the processing

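With 2 arrays per group, a fit that leaves one out has 1 residual degree of freedom and assumes that the lone array varies like the other group. It also leaves the replicate numbers unequal between the groups. Under each alternative run, 0 members and 0 probe sets passed the adjusted p of 0.05 (limma), with a smallest adjusted p over probe sets of 0.063 to 0.664. Fhl1 and Mylk passed the looser threshold of an unadjusted p under 0.05 with a 1.5-fold difference under each of them. The count of members past it was 2 in the main fit, beside 2.83% of all genes. It was 4 with the replicate block, where Actn4 and Pdlim5 joined, beside 5.07% of all genes. With an intensity trend in the prior it was 4, with the same additions, beside 3.7%. With only the bright probe sets tested it was 3, where Actn4 joined, beside 5.98% of the genes tested. The other alternatives that kept all 4 arrays gave 2. Without BMP3 replicate 1 the differences of Tagln2 and Actn4 were 0.86 and 0.94. The replicate numbers are not stated to mark a shared day or batch. Deviations of same-numbered arrays from their group means had a correlation of 0.45 across probe sets. At an unadjusted p under 0.05 alone, 3 members were higher, and 15 with the replicate block (39.5%, against 8.98% of all genes). The other alternatives that kept all 4 arrays gave 1 to 4 (2.63% to 10.5%, against 3.58% to 6.66% of all genes). Related genes past the looser threshold were 6 with the replicate block (5.07% of all genes). The probe sets past the looser threshold were 1265, and 2164 with the replicate block, 426 with a 2-fold threshold and 1071 to 2277 with an array left out. The count of members higher, 32, ran from 20 to 33 with an array left out and from 29 to 34 otherwise, and the median difference from 0.01 to 0.40. With an array left out, the share of all genes higher ran from 34.2% to 53.5%. Median centring put 67.0% of all genes higher, against 42.4%, and 34 of the 38 members.

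Of the 33 bright members, 17 kept their direction under each alternative (15 higher, with Zyx, Actn4 and Pdlim5 among them, and Fhl1 and Mylk lower). The other 16 turned at least once, 12 of them only when an array was left out. The cause was not tested. Ranges with an array left out were -1.72 to 1.97 for Tagln, -1.22 to 0.76 for Myl9 and -0.75 to 1.21 for Actg2. Those of Smtn and Srf were -0.24 to 1.24 and -0.35 to 0.69. Csrp1 ran from -0.24 to 0.67, Acta2 from -0.22 to 0.55, Pdlim7 from -0.15 to 0.93 and Myl6 from -0.56 to 0.26. The ranges were -0.32 to 0.33 for Tpm1, -0.18 to 0.42 for Vcl, -0.15 to 0.20 for Cald1 and -0.094 to 0.20 for Cnn3. They were -0.06 to 0.40 for Flnc, -0.028 to 0.61 for Myh10 and -0.0027 to 0.27 for Pxn. Under quantile normalization Cald1 was at -0.0053 and Tpm1 at -0.022. Under cyclic loess Cald1 was at -0.044, Tpm1 at -0.055 and Cnn3 at -0.020. With the mean of all probe sets Csrp1 was at -0.19.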
